A study of Mus musculus with 3 samples.

Results

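Chromatin accessibility at day 7 after injury was compared between 1 library of mouse mesenchymal stem cells labelled non-immobilized and 1 library of such cells labelled immobilized. The cells came from a study of heterotopic ossification, and a library of uninjured cells (day 0) completes the series of 3. The labels give no strain, genotype, age, kind of injury, way of immobilization or number of animals, nor how the cells were isolated. Each library was assayed by Omni-ATAC, and the authors deposited a list of peak summits, each a single base with a score. Summits were ranked by score within each list, from 0% for the best to 100% for the worst. The 47912 summits of the non-immobilized list and the 47912 best of the 67404 summits of the immobilized list were widened by 250 bp on each side and merged. This gave 57976 regions on chromosomes 1 to 19. A region called in only 1 of the day 7 lists is named a one-library region here, and a region called in both a shared region. Each group has a single library, so no difference could be set against the spread between replicates and no test was run. Values in parentheses after a share are its exact (Clopper-Pearson) 95% binomial interval, which covers counting error only.

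Of the 57976 regions, 10763 belonged to the non-immobilized list alone (18.6%), 11701 to the immobilized list alone (20.2%) and 35512 to both. One-library regions near listed endothelial genes leaned to the non-immobilized list, with 87 against 22. Those near listed epidermal genes leaned to the immobilized list, with 105 against 14. Over all genes 48.5% of assigned one-library regions were non-immobilized. Both sets are small parts of their classes. One-library regions near genes of bone, cartilage, fat and tendon formation were too few to tell a lean to either library from none. Most one-library regions had weak scores, and more non-immobilized than immobilized ones lay beside a summit of the other library. These measurements are given first, because they bear on every count of genes.

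The sequencing statistics, from the deposited files, were 173029378 read pairs in the non-immobilized library, against 143818952 in the immobilized one. Duplicates made up 42.0% and 43.4%, and 89.9% and 92.5% of reads aligned, so at most 90136518 and 75269683 unique aligned pairs remained. The deeper library thus had the shorter list. Cutting to equal length left out 19492 immobilized summits, 28.9% of that list, and no non-immobilized summit. The lowest score kept was 1.33 in the non-immobilized and 6.61 in the immobilized list.

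In ATAC-seq a transposase cuts open DNA, so that peaks mark promoters, enhancers and other sites free of nucleosomes. A summit marks the base with most cuts in a peak. A weaker site may pass the peak threshold in one library and miss it in another, so absence from a list does not show closed chromatin. Heterotopic ossification is the formation of bone in soft tissue, often after trauma, by way of cartilage. Mesenchymal stem or progenitor cells can form bone, cartilage, fat and tendon, and movement and mechanical load are known to act on that choice. Endothelial cells line blood vessels and depend on transcription factors of the ETS, SOX and GATA families. Epidermal cells carry keratins and desmosomes, and depend on factors such as p63, the grainyhead-like factors and AP-1.

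Promoters overlapped by a one-library region are shown so that the classes can be read beside each other, 5 from the immobilized and 2 from the non-immobilized library. Dmkn, Scel and Il1rn were chosen after their values were seen, and so were Cldn4, Krt5, Emcn and Erg as members of the gene lists described below. Each line holds the 250 bases before a transcription start, 5′ to 3′ on the gene's strand, from RefSeq for GRCm38.p6. Capitals mark matches to TGANTCA, the letters of the AP-1 site, which read the same on both strands. Dmkn, Scel, Cldn4, Il1rn and Krt5 belong to immobilized-only regions, Emcn and Erg to non-immobilized-only regions.
Dmkn: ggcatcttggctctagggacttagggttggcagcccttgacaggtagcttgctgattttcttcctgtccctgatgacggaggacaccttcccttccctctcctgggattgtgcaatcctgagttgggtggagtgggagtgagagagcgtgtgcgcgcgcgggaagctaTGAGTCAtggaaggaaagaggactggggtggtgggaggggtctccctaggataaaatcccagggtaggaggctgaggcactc
Scel: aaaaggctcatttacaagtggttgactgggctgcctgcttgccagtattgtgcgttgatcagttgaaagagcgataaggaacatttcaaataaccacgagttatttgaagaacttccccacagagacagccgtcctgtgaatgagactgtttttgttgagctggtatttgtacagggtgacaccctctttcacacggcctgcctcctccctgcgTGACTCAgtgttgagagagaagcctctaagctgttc
Cldn4: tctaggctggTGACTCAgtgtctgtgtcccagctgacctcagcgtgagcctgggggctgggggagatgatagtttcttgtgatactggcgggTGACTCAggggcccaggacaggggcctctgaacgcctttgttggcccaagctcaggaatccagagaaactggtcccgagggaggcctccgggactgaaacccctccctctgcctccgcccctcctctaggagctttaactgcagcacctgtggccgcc
Il1rn: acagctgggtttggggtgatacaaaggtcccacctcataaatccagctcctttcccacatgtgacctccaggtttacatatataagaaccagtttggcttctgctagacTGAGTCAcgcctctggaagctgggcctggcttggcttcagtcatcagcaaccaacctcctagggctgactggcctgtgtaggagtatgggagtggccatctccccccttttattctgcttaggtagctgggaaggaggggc
Krt5: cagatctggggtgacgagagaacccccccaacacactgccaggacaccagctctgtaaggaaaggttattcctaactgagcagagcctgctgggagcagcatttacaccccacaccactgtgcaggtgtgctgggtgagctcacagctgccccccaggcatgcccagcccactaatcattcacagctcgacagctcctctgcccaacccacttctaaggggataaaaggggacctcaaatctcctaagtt
Emcn: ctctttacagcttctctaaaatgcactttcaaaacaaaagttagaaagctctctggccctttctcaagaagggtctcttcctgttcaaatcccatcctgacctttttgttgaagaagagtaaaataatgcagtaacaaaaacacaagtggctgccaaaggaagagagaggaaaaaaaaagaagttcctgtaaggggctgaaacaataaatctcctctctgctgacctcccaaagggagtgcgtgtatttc
Erg: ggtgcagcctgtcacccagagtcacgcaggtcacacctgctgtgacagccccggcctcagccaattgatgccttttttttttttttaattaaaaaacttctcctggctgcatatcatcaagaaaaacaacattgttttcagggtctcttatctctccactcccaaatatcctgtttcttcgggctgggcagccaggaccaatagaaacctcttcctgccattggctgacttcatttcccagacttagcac

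Dmkn encodes dermokine, a secreted protein of the epidermis, and its stretch lies at chr7:30776155-30776404 on the plus strand. The region over it ranked 28.1% in the immobilized list, and its match begins 82 bases before the start. Scel encodes sciellin of the cornified envelope (chr14:103513091-103513340, plus strand). Its region ranked 28.7%, with a match 36 bases before the start. Cldn4 encodes the tight junction protein claudin 4 (chr5:134946935-134947184, minus strand), and its region ranked 78.7%. It has 2 matches, 240 and 158 bases before the start. Il1rn encodes the interleukin 1 receptor antagonist (chr2:24336610-24336859, plus strand), and its region ranked 47.7%, with a match 141 bases before the start. Krt5, a keratin of basal epidermal cells (chr15:101712906-101713155, minus strand), has no match, and its region ranked 65.2%. Emcn encodes the endothelial sialomucin endomucin (chr3:137340828-137341077, plus strand), and its region ranked 81.4% in the non-immobilized list. Erg, an ETS factor of endothelial cells (chr16:95459349-95459598, minus strand), is overlapped by a region ranked 58.9% that lies wholly upstream of the start. Neither of these holds a match. The nearest immobilized summit, counting the whole deposited list, lay 18676 bp from that of Emcn but 1 bp from that of Erg, where it had been left out by its rank. The nearest non-immobilized summits to the 5 regions called in the immobilized library lay between 4246 bp (Cldn4) and 30808 bp (Il1rn) away.

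Promoter windows of 300 bases, 250 before to 50 after the start, were searched the same way throughout. Of 31396 windows, 657 overlapped only a non-immobilized region (2.09%), 597 only an immobilized region (1.90%) and 12044 a shared region (38.4%). Windows of several starts of a gene can overlap and share a region. TGANTCA occurred in 7.84% of all windows (7.55 to 8.15). The share was 15.9% in immobilized-only windows (13.1 to 19.1), 8.37% in non-immobilized-only windows (6.37 to 10.8) and 5.06% in shared windows (4.68 to 5.47). With windows counted only where the other deposited list had no summit within 1 kb, it was 18.4% of 477 immobilized windows (15.1 to 22.2) and 9.23% of 195 non-immobilized ones (5.56 to 14.2). Windows with no region from either library had 9.41%, so the immobilized-only share was above each of these groups of windows. The letters AACNNGTT, read by grainyhead-like factors, occurred in 5.70% of immobilized-only (3.98 to 7.87) and 4.11% of non-immobilized-only windows (2.73 to 5.92), beside 4.20% of all windows. Those intervals overlap. CCGGAAG, an ETS site, was in 5.78% of non-immobilized-only (4.13 to 7.85) and 3.52% of immobilized-only windows (2.19 to 5.33), intervals that overlap, beside 18.7% of shared and 9.004% of all windows. AACNNGTT reads the same on both strands, and the others were searched on both. Of 6 further motifs, GGGCGG (the GC box) was in 43.7% of non-immobilized-only (39.9 to 47.6) and 35.8% of immobilized-only windows (32.0 to 39.8), beside 35.98% of all windows. Where the other deposited list had no summit within 1 kb, its shares were 34.9% (28.2 to 42.0) and 30.0% (25.9 to 34.3), intervals that overlap. For ACAATGG (SOX), GGAATG (TEAD), TGTGGTT (RUNX), CCAAT and TATAAA, found in 3.61%, 14.6%, 5.32%, 37.3% and 13.6% of all windows, the intervals of both one-library classes overlapped. Base content moved with the classes: the median GC content was 57.3% in non-immobilized-only, 53.7% in immobilized-only and 62.3% in shared windows, with medians of 11, 7 and 22 CpG. Its part in the shares of letters was not tested. A match of letters is not a bound site.

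One-library regions were mostly weak. Their median rank was 79.6% in the non-immobilized list (quartiles 65.0 to 90.8) and 77.8% in the immobilized list (63.1 to 89.8). Shared regions had medians of 38.11% and 37.98%. In the best decile of each list, 99.4% of non-immobilized and 99.6% of immobilized regions were shared. In the last decile the shares were 33.3% (31.9 to 34.7) and 37.5% (36.1 to 38.9). Ranks better than 50% were held by 1015 non-immobilized-only regions (9.43%) and 1256 immobilized-only regions (10.7%). The plot by deciles of the list shows both curves falling together.

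**Figure D1:**
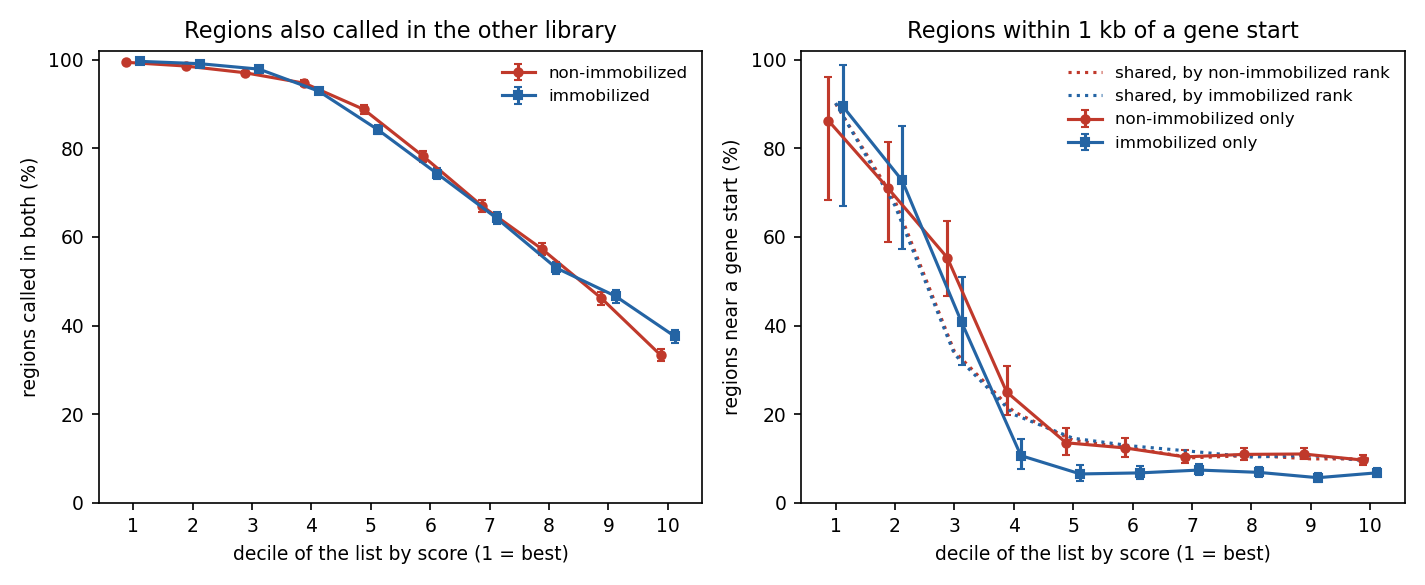
Left, percent of the regions in each decile of a list, by score, that were also called in the other day 7 library. Right, percent of regions within 1 kb of a gene start, for one-library regions (points, lines) and shared regions (dotted). Bars are exact 95% binomial intervals. The share called in both fell from 99.4% to 33.3% and from 99.6% to 37.5%, and from the fourth decile on the immobilized-only regions lay near starts less often than the non-immobilized-only ones.

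Ranks of shared regions followed each other across the lists. Over the 35512 shared regions, which are not independent replicates, Pearson's correlation of the ranks was 0.82 and Spearman's 0.86. The rank differed by 10 percentage points or less at 22022 of them (62.01%). A rank at least 25 points better in the non-immobilized library was found at 2420 regions (6.81%), and one at least 25 points better in the immobilized library at 2196 (6.18%). The median difference, immobilized minus non-immobilized, was 0.12 points, a value that ranking within lists of equal length keeps near 0.

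Among the best-ranked one-library regions were pairs, 1 from each library, at the same gene starts. At Sap130, a subunit of a histone deacetylase complex, the summit ranked 2.74% in the non-immobilized and 1.93% in the immobilized list, and the summits lay 652 bp apart. At Sp4, a GC box factor, the ranks were 4.05% and 3.75% and the summits lay 604 bp apart. At the start of Spag9, a scaffold of JNK signalling, they were 5.90% and 6.50%, 772 bp apart. The start shared by Cryzl1 and Itsn1 had ranks of 2.96% and 6.37%, 572 bp apart. Those between Rnf31 and Psme2 ranked 4.81% and 5.05%, 573 bp apart, and those between Ubqln4 and Lamtor2 6.19% and 7.23%, 660 bp apart. Fem1a, Eif5b and Chd9 were also among the 10 best of the non-immobilized library, with other-library summits 607, 773 and 918 bp away. Ntan1, Gm34296, Rap2b and Stmn1 completed the 10 best of the immobilized library, at 546, 892, 751 and 734 bp. Summits over 500 bp apart are not merged at this width, so these regions count as one-library although the other library had a summit within 1 kb. In each pair with 2 ranks given, both summits were in the best decile of their list. In the best decile a kept summit of the other library, of any rank, lay within 1 kb of 27 of 29 non-immobilized and 19 of 19 immobilized one-library regions.

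One-library regions were therefore divided by the nearest summit of the other library. A kept summit of the other library lay within 1 kb of 2079 non-immobilized-only regions (19.3%, 18.6 to 20.1) and of 1129 immobilized-only regions (9.65%, 9.12 to 10.2). A left-out immobilized summit lay within 1 kb of a further 4524 non-immobilized-only regions (42.0%, 41.1 to 43.0). The immobilized class has no such regions, since no non-immobilized summit was left out. Measured against the lists of equal length, 8684 non-immobilized-only regions (80.7%) and 10572 immobilized-only regions (90.4%) lay away from every summit of the other library, 573 and 1014 of them at ranks better than 50%. Against the lists as deposited, with 67404 immobilized summits to compare with, 4160 of the non-immobilized-only regions (38.7%) were left, 197 of them at ranks better than 50%. The immobilized number stays the same, so counts against the deposited lists are unequal by construction. The median ranks of these sets were 80.8%, 78.2% and 82.9%. Among the best-ranked of them beyond 20 kb of any other summit were a region 42675 bp from the start of Dio2, the thyroid hormone deiodinase (rank 22.1%), and one 25925 bp from that of Bnc1, the epidermal factor basonuclin 1 (22.1%). Both genes were chosen after their values were seen.

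**Figure D2:**
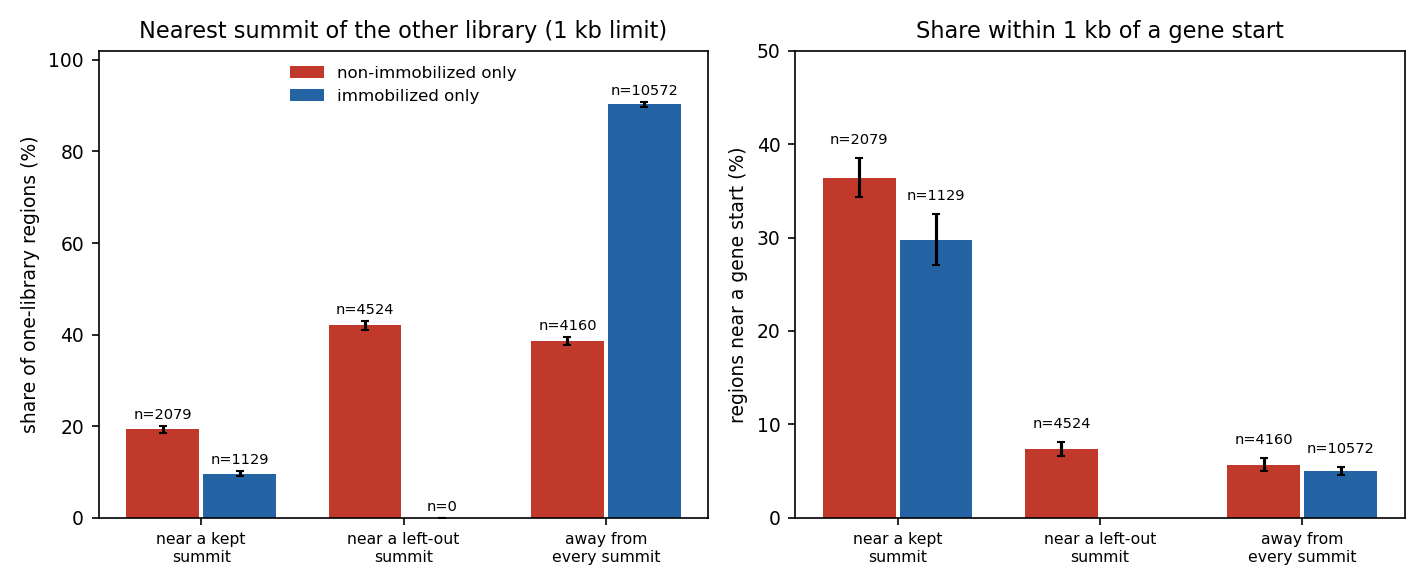
One-library regions by the nearest summit of the other library: a summit kept in the equal-length list, a summit left out by its rank, or none within 1 kb in the whole deposited list. Left, percent of each class; right, percent within 1 kb of a gene start; bars show exact 95% binomial intervals and n the number of regions. Of the immobilized-only regions 90.4% were away from every summit of the other library, against 38.7% of the non-immobilized-only ones, or 80.7% when only kept summits count, and away from summits the classes lay near starts at 5.65% and 5.04%.

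Regions called in both libraries lay near genes more often than one-library regions. A gene start lay within 1 kb of 33.7% of shared regions (33.2 to 34.2), 12.3% of non-immobilized-only regions (11.7 to 12.9) and 7.43% of immobilized-only regions (6.96 to 7.92). The median distance to the nearest start was 9.74, 23.5 and 26.1 kb. Inside a gene lay 55.2% of shared, 57.8% of non-immobilized-only (56.9 to 58.8) and 50.2% of immobilized-only regions (49.3 to 51.2). No end of a protein-coding gene lay within 50 kb of 17.8%, 26.9% and 28.7%. These shares include regions deep inside long genes, so they are not shares of regions far from genes. Rank moved with distance to a start. In the best decile 86.2% of the non-immobilized-only and 89.5% of the immobilized-only regions were near a start, and in the last decile 9.64% and 6.78% were.

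The difference of 4.86 points near starts between the one-library classes was also seen in most deciles of rank, and it was smaller away from summits of the other library. Beside a kept summit of the other library, 36.4% of non-immobilized-only (34.3 to 38.5) and 29.8% of immobilized-only regions (27.1 to 32.5) were near a start. Away from every kept summit the shares were 6.52% (6.01 to 7.06) and 5.04% (4.63 to 5.48), a difference of 1.48 points whose interval lies above 0 (0.53 to 2.43). Beside a left-out summit the non-immobilized share was 7.32% (6.57 to 8.11). Away from every deposited summit, left-out ones included, the non-immobilized share was 5.65% (4.97 to 6.39), and the difference of 0.61 points had an interval that includes 0 (-0.51 to 1.76). The share inside genes still differed there, at 56.7% of non-immobilized-only and 49.4% of immobilized-only regions.

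The day 0 library was also cut to 47912 summits. Here and below, a region counts as having a day 0 summit if one lay in it or within 250 bp of its edges. That held for 84.3% of shared regions (83.9 to 84.7), 33.9% of non-immobilized-only (33.0 to 34.8) and 31.6% of immobilized-only regions (30.7 to 32.4). Away from every kept summit of the other day 7 library the shares were 32.7% (31.8 to 33.7) and 30.5% (29.6 to 31.4), in the same order. Against the deposited lists, which are unequal in length, the non-immobilized share was 22.7% (21.4 to 24.0) and the order was the opposite.

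Neighbouring one-library regions came from the same library somewhat more often than their numbers alone give. Under 10 kb apart, 2931 of 5269 neighbouring pairs were from 1 library (55.6%, 54.3 to 57.0), where the make-up of all one-library regions gives 50.1%. The share was 57.3% at gaps of 10 to 20 kb, 52.9% at 50 to 100 kb and 45.5% (40.2 to 50.8) above 1000 kb. With only regions away from every kept summit of the other library it was 62.2% (60.7 to 63.8) under 10 kb, beside 50.5% by make-up. With only regions away from every deposited summit it was 69.2% (67.3 to 71.1) under 10 kb, beside 59.5% by make-up, and 59.3% at 100 to 1000 kb. Both filters remove pairs from different libraries with summits within 1 kb, which raises these shares by construction. In the second set the share was 86.8% under 1 kb and 65.0% (62.8 to 67.1) at 1 to 10 kb. For all one-library regions it was 55.6% at 1 to 10 kb. For all one-library regions the excess depended on the width of regions: with summits widened by 100 bp the share was 44.6%, beside 50% by make-up. With the 23956 best summits of each list it was 50.8% (47.8 to 53.8), beside 50.01%.

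**Figure D3:**
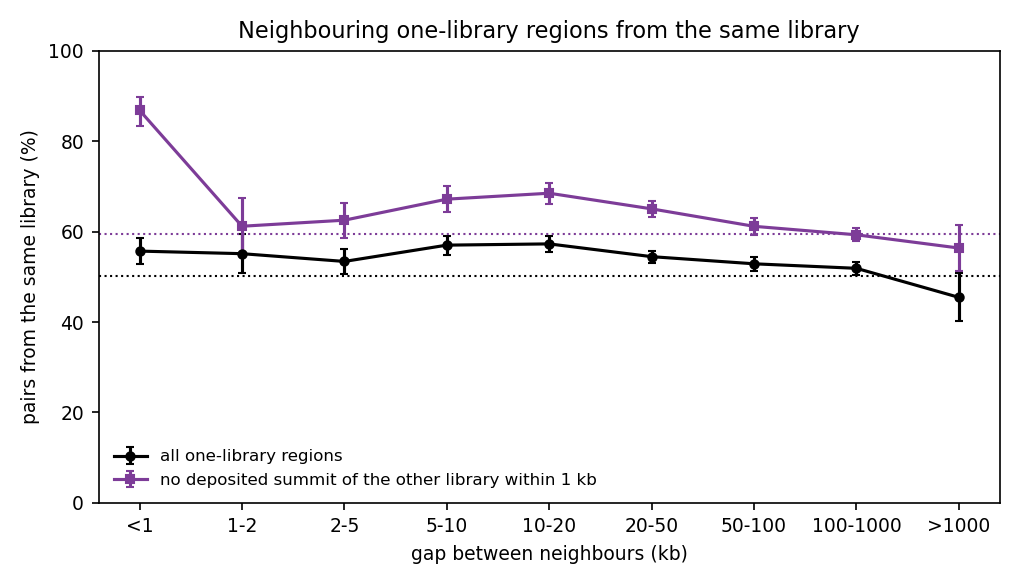
Percent of neighbouring one-library regions that came from the same library, by the gap between them in kb, for all one-library regions (circles) and for those with no deposited summit of the other library within 1 kb (squares). Bars are exact 95% binomial intervals and dotted lines the share given by the make-up of each set, 50.1% and 59.5%. Circles lie above their line at every gap up to 1000 kb, by least at 100 to 1000 kb (51.9%), and at 45.5% beyond. Squares lie above theirs up to 100 kb, most of all under 1 kb (86.8%), where the filter raises the share by construction. At gaps of 1 to 5 kb and 50 to 100 kb the intervals of the squares include their line.

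A cluster was defined as 4 or more successive one-library regions of 1 library with gaps of at most 20 kb. There were 134 clusters of non-immobilized-only regions, with 621 regions (5.77%), and 154 of immobilized-only regions, with 687 (5.87%). A deposited immobilized summit lay within 1 kb of 67.3% of the regions in non-immobilized clusters, and a non-immobilized summit within 1 kb of 4.95% of those in immobilized clusters. Over all regions of these classes the shares were 61.3% and 9.65%. With only regions away from kept summits of the other library there were 83 non-immobilized and 137 immobilized clusters, and with only those away from all deposited summits 5 and 146. Day 0 had a summit in 23.2% and 20.1% of the clustered regions, beside 33.9% and 31.6% of all regions of the classes.

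The largest non-immobilized cluster had 11 regions over 107 kb at Spsb1, which encodes an adaptor that restrains TGF-beta signalling (chr4:149847291-149954493). Their ranks ran from 14.1% to 88.7%, and 6 of the 11 had an immobilized summit within 1 kb. Sfi1 with Gm51877, and C130026I21Rik with Gm38510, had 10 regions each, and A530032D15Rik had 7. These genes have near-identical copies, so the placement of reads there is uncertain. At the Hoxb6 to Hoxb9 genes, which set position along the body axis, 7 regions covered 38.2 kb (chr11:96261462-96299636) with ranks from 42.8% to 88.7%, and 5 had an immobilized summit within 1 kb. Flt1, a VEGF receptor gene, held 7 regions within its body (chr5:147610069-147652018), of which 5 had such a summit. Dpysl2 with Pnma2, and Ago2, had 7 each. The Cdh5 cluster held 6 regions over 48.1 kb, with 2 immobilized summits within 1 kb and no summit at day 0. A cluster within the ETS factor gene Erg also held 6.

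The largest immobilized cluster had 9 regions over 64.4 kb at Tekt5 and Emp2 (chr16:10330992-10395436), with ranks from 48.0% to 96.2%. Tekt5 encodes a tektin of sperm flagella, and Emp2 an epithelial membrane protein. Aqp3, the water and glycerol channel of basal epidermis, shared a cluster of 7 with Aqp7. Mbp, the myelin basic protein gene, had 7 regions and the adhesion scaffold gene Nedd9 with Smim13 had 7. Nhsl1, Perp, Slamf9 and the pair Serpinb2 and Serpinb7 had 6 each. Perp encodes a desmosome protein, and Serpinb2 and Serpinb7 are protease inhibitors found in keratinocytes. No region of these 4 clusters had a non-immobilized summit within 1 kb. Day 0 had a summit in none of the 6 at Perp and none of the 6 at the Serpinb pair. Maps of 6 clusters show the non-immobilized ones lying among shared regions and those at Perp and the Serpinb pair lying with few or none.

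**Figure D4:**
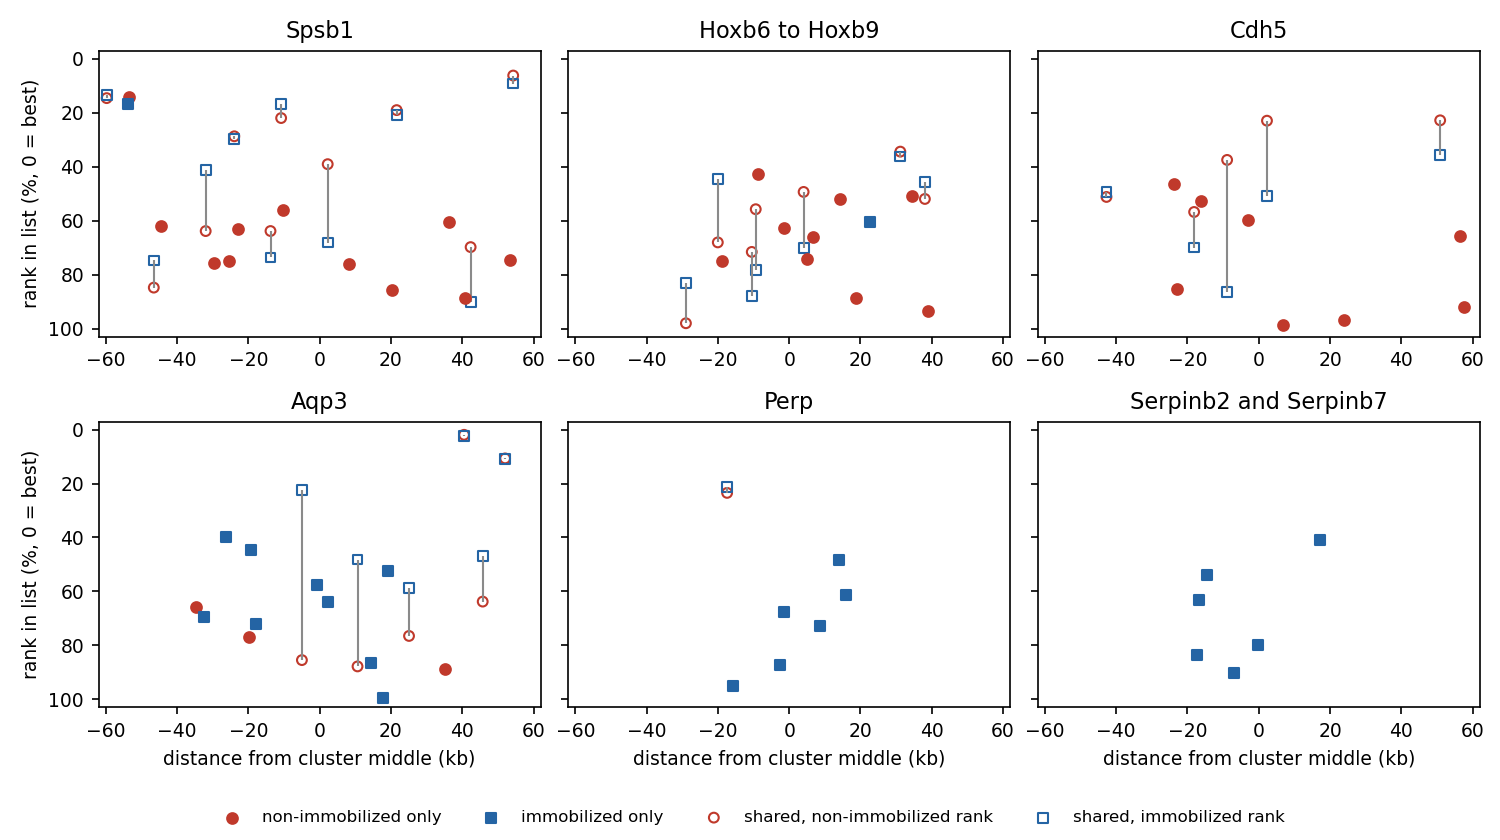
Regions within 60 kb on either side of the middle of 3 non-immobilized clusters (top) and 3 immobilized clusters (bottom), by distance in kb and rank in each list (0% is best, at the top). Filled symbols are one-library regions; open symbols joined by a line are the ranks of a shared region in both libraries. At Aqp3 the shared regions that ranked 22.3% and 48.2% in the immobilized list ranked 85.4% and 87.8% in the non-immobilized list.

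Each region was given to the coding gene whose end lay nearest, up to 50 kb away. Regions inside a long gene but over 50 kb from any gene end were given to no gene. Counts for long genes and for lists leave these regions out. In the non-immobilized clusters within Erg, Flt1 and Col4a2, 5 of 6, 6 of 7 and 5 of 6 regions were left out in this way. Of 14822 genes with a region, 22.7% had more one-library regions in the non-immobilized and 24.5% more in the immobilized library. Over all assigned one-library regions, 48.5% (47.7 to 49.3) were from the non-immobilized library. These libraries cannot separate fewer cells of a type from less accessible chromatin in each cell. Of 561 genes with 5 or more one-library regions, 18 had all of them in the non-immobilized (3.21%) and 36 all in the immobilized library (6.42%).

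Markers of the labelled cell type were present in both libraries. All 8 mesenchymal markers (Pdgfra, Prrx1, Ly6a, Thy1, Cd44, Nt5e, Vcam1 and Twist1) had a region in each, with 32 regions in the non-immobilized and 33 in the immobilized library. Markers of other cell types also had regions. The 6 endothelial markers (Cdh5, Pecam1, Kdr, Tek, Erg and Sox18) had 46 and 26 regions. Of the 6 keratinocyte markers (Krt5, Krt14, Trp63, Grhl3, Dsp and Cdh1), 4 had a region in the non-immobilized library, with 9 in all, and 6 had one in the immobilized library, with 29 in all. Krt5 and Krt14 had none in the non-immobilized library. The pericyte markers had 10 and 9 regions, the skeletal muscle markers 10 and 13, and the myeloid markers 9 and 8, with Itgam at 0 in both. The endothelial and keratinocyte markers are themselves members of the endothelial and epidermal gene lists below, so they are no separate measure of those lists. The part of endothelial or epidermal cells in those results was not tested.

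The endothelial lists leaned to the non-immobilized library in one-library regions and in the ranks of shared regions. Together, 87 of their one-library regions were from the non-immobilized and 22 from the immobilized library (79.8%, 71.1 to 86.9). Of 16 endothelial transcription factors, 14 leaned to the non-immobilized library and 1 (Ets1) to the immobilized one. Of 22 surface and junction genes, 16 had more in the non-immobilized and 1 (Vwf, von Willebrand factor) more in the immobilized library. Shared regions of the surface genes ranked better in the non-immobilized library at 56 of 69 sites (81.2%), beside 51.5% for all genes, with a median difference of 12.3 points, beside 0.19 for all genes. The transcription factors had a median of 6.16 points. Of the 48 non-immobilized-only regions of the surface genes, 2 had a summit at day 0 (4.17%), beside 33.2% for all genes. For the transcription factors 8 of 39 had one (20.5%). Away from every kept summit of the other library the endothelial counts were 76 and 19 (80%), beside 45.2% for all genes, and away from every deposited summit 37 and 19 (66.1%), beside 28.2%. With the lists as deposited they were 46 and 48 (48.9%), beside 19.8%.

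Among the surface genes, Cdh5 encodes VE-cadherin of endothelial junctions (chr8:104101613-104144504). Its 4 shared regions ranked 51.2%, 56.8%, 37.5% and 22.9% in the non-immobilized library and 49.3%, 69.9%, 86.5% and 50.9% in the immobilized library. Of these, 3 ranked better in the non-immobilized library and the one farthest upstream did not. Dll4, the Notch ligand of sprouting and arterial endothelium (chr2:119325784-119335666), is in none of the lists and is named for its rank difference, one of the 8 largest. It had 5 shared regions with ranks of 55.7%, 45.3%, 58.2%, 28.9% and 9.68% in the non-immobilized and 83.6%, 78.1%, 72.3%, 57.9% and 9.28% in the immobilized library. The strongest of them ranked alike in both, and the other 4 ranked better in the non-immobilized library. Aplnr, the apelin receptor of vessels, had 3 shared regions at 30.6%, 37.2% and 53.3% in the non-immobilized and 59.3%, 77.9% and 76.7% in the immobilized library. All 3 ranked better in the non-immobilized library.

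Over the genes with a shared region, the median favoured the non-immobilized library at 20 of 22 surface genes and 14 of 16 factors. The exceptions were Egfl7 (-4.15 points over 3) and Rasip1 (-7.10 over 3) among the surface genes, and Erg and Klf2 (-2.06 over 4) among the factors. Robo4, a guidance receptor of endothelium, had a single shared region that ranked 45.0 points better in the non-immobilized library, and Icam2, an endothelial adhesion molecule, had a median of 33.4 points over 2. Kdr and Flt1, the VEGF receptors, had medians of 23.0 and 17.7 points. Among factors, Sox17 and Sox18, which act in artery and vessel formation, had a single shared region each, 55.5 and 33.8 points better in the non-immobilized library. Among regions given to it, Erg had 5 non-immobilized-only and 1 immobilized-only region, but its 5 shared regions had a median of -6.07 points, towards the immobilized library. Vwf had 2 and 5 one-library regions, and a median of 17.6 points towards the non-immobilized library over 3 shared regions, so its measures pointed opposite ways. Lymphatic endothelial genes had 2 non-immobilized-only and 6 immobilized-only regions (25%, 3.19 to 65.1).

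The epidermal lists leaned to the immobilized library. Together, 14 of their one-library regions were from the non-immobilized and 105 from the immobilized library (11.8%, 6.58 to 18.95). Of 32 keratin, desmosome and barrier genes, 23 had more regions in the immobilized and 2 (Itgb4 and Ppl) more in the non-immobilized library. Of 16 epithelial transcription factors, 13 had more in the immobilized and 2 (Ovol2 and Pitx1) more in the non-immobilized library. The median rank difference in shared regions was -5.28 points for the first list and -14.1 points for the second, where negative values are better ranks in the immobilized library. Of the 65 immobilized-only regions of the barrier genes, 64 had no non-immobilized summit within 1 kb (98.5%), beside 89.0% for all genes, and 5 had a summit at day 0 (7.69%), beside 31.6%. Away from every kept summit of the other library the epidermal counts were 10 and 104 (8.77%), beside 45.2% for all genes, and away from every deposited summit 2 and 104 (1.89%), beside 28.2%. A separate setting kept ranks better than 50% and used a shorter distance to summits of the other's whole list. Its epidermal counts were 1 and 22 (4.35%), beside 36.1% for all genes.

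At Aqp3 (chr4:41092724-41098183), 5 regions were called only in the immobilized library, and 2 shared regions ranked 85.4% and 87.8% in the non-immobilized but 22.3% and 48.2% in the immobilized library. Both were far better in the immobilized library. Pkp1, which encodes the desmosome protein plakophilin 1 (chr1:135871394-135919207), had 6 immobilized-only regions. Its 4 shared regions ranked 43.0%, 78.8%, 72.6% and 54.8% in the non-immobilized and 28.5%, 56.4%, 54.5% and 35.7% in the immobilized library. All 4 ranked better in the immobilized library. Ehf, an ETS factor of epithelia (chr2:103263431-103303275), had 5 immobilized-only regions with ranks of 79.8%, 37.2%, 49.4%, 94.8% and 65.3%. No non-immobilized summit lay closer than 141344 bp to any of them, and none was called at day 0. Grhl3, a grainyhead-like factor of the epidermal barrier, had a single shared region that ranked 98.7% in the non-immobilized and 37.5% in the immobilized library.

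Over the genes with a shared region, the median favoured the immobilized library at 16 of 24 barrier genes and 11 of 14 factors, and the non-immobilized library at the others. The median differences were -49.6 points at Esrp1, an epithelial splicing factor, and -42.5 points at Col17a1, a hemidesmosome collagen. At Ovol1 and Zfp750, factors of epidermal differentiation, they were -49.3 and -26.6 points, and at Cdh1, which encodes E-cadherin, -23.0 points. Perp had 6 immobilized-only regions, but at its start the shared region ranked 23.5% in the non-immobilized and 21.3% in the immobilized library. Cldn4 went the other way in shared regions, with a median of 19.03 points towards the non-immobilized library. Jup, Lamb3 and Krt18 had shared regions only, and their medians of 1.49, 1.65 and 9.81 points were on the non-immobilized side.

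**Figure D5:**
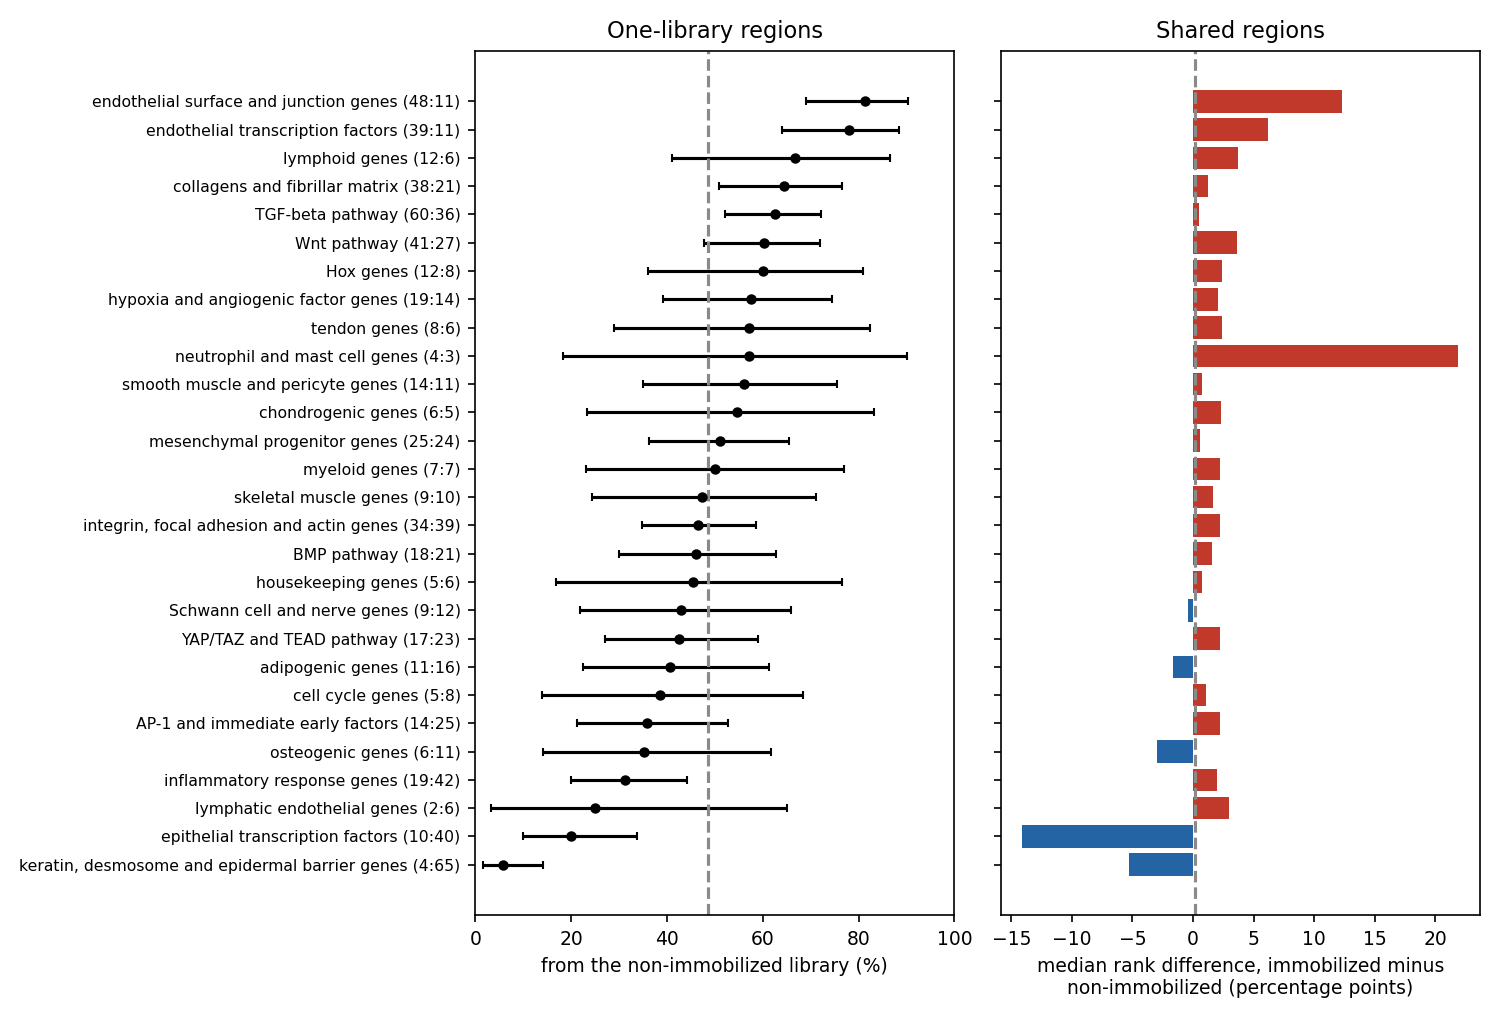
Gene lists ordered by the percent of their one-library regions that came from the non-immobilized library (left, with exact 95% binomial intervals; numbers after each name are non-immobilized-only to immobilized-only regions) and the median rank difference of their shared regions (right, immobilized minus non-immobilized in percentage points, so bars to the right are better ranks in the non-immobilized library). Dashed lines are all genes, at 48.5% and 0.19 points. The endothelial lists lie at 78.0% and 81.4% and the epidermal lists at 5.80% and 20%.

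Inflammatory genes had 19 non-immobilized-only and 42 immobilized-only regions (31.1%, 19.9 to 44.3), and 12 of 26 had more in the immobilized and 3 more in the non-immobilized library. Their shared regions had a median of 1.958 points, on the other side. Il1b, which encodes interleukin 1 beta (chr2:129364569-129371164), had 6 regions, all immobilized-only, with ranks of 51.8%, 96.0%, 66.9%, 40.1%, 53.4% and 38.7%. The nearest non-immobilized summit to any of them lay 5919 bp away. Ptgs2, which encodes the prostaglandin synthase COX-2, had 3 immobilized-only regions, and its 2 shared regions ranked 40.5% and 81.8% in the non-immobilized and 23.6% and 32.0% in the immobilized library. Nfkb1, a subunit of NF-kappa B, had 1 and 5 one-library regions, and Il6 had 2 regions, both shared. AP-1 and immediate early factors had 14 and 25 (35.9%, 21.2 to 52.8), an interval that holds the value of all genes. Bach1, a repressor that responds to heme, had 0 and 6, Fosl2 0 and 3, and Jun 5 and 2. Myeloid genes had 7 and 7, and the neutrophil and mast cell list 4 and 3.

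Kit, the receptor of stem cell factor on mast and progenitor cells (chr5:75574987-75656722), differed most in that list. Its 3 shared regions ranked 34.9%, 59.0% and 57.3% in the non-immobilized and 60.6%, 98.6% and 90.9% in the immobilized library, and 3 more regions were non-immobilized-only. None of the 6 had a summit at day 0.

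Genes of the TGF-beta pathway had 60 non-immobilized-only and 36 immobilized-only regions (62.5%, 52.0 to 72.2), with 11 of 23 genes leaning to the non-immobilized and 4 to the immobilized library. Spsb1 had 11 and 1, and Lrrc32, which presents latent TGF-beta, 6 and 0. Both are among the 12 genes leading by count towards the non-immobilized library, so the share of this list rests in part on them. Ski, a repressor of SMAD signalling, had 4 and 0. Tgfbr3, the co-receptor betaglycan, had 2 and 6. Away from every deposited summit of the other library the list had 18 and 29 regions (38.3%, 24.5 to 53.6), beside 28.2% for all genes, and Ski had 0 of its 4. The median rank difference of the 117 shared regions was 0.53 points. BMP pathway genes had 18 and 21 (46.2%, 30.1 to 62.8), and Bmp7, a bone-inducing ligand, had 0 and 3 with a median of -30.4 points over 3 shared regions. Wnt pathway genes had 41 and 27 (60.3%, 47.7 to 72.0), with Lrp5, a Wnt co-receptor, at 5 and 1.

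Collagens and fibrillar matrix genes had 38 and 21 one-library regions (64.4%, 50.9 to 76.4), and 10 of 21 genes leaned to the non-immobilized and 5 to the immobilized library. Col6a3 had 7 and 1, of which 7 had a summit at day 0. Among regions given to it, Col4a2, a basement membrane collagen, had 5 and 0 with none at day 0. Fbn1, which encodes fibrillin 1, had 2 and 5. Integrin, focal adhesion and actin genes had 34 and 39 (46.6%, 34.8 to 58.6), with Nedd9 at 2 and 8 and Pxn, which encodes paxillin, at 3 and 0. YAP/TAZ and TEAD pathway genes had 17 and 23 (42.5%, 27.0 to 59.1), of which Amotl2, an inhibitor of YAP, had 1 and 7. Ptk2, which encodes focal adhesion kinase, had 2 and 1, and its 7 shared regions had a median of 4.04 points. Ddr2, a collagen receptor, had 0 and 2, and its 6 shared regions had a median of -16.4 points with a range of -62.7 to 16.7.

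Lists of the lineages that mesenchymal cells form had small counts whose intervals all held the value of all genes. Osteogenic genes had 6 and 11 (35.3%, 14.2 to 61.7), chondrogenic genes 6 and 5, adipogenic genes 11 and 16, tendon genes 8 and 6 and mesenchymal progenitor genes 25 and 24. Runx2, the osteoblast regulator, had 2 shared regions with a median of 2.19 points and Sox9, the cartilage regulator, 2 with a median of -1.20 points. Pparg, the fat regulator, had 4 with a median of -7.50 points, and Scx, a tendon factor, 3 with a median of 16.1 points and a range of 7.69 to 26.9. Pdgfra and Prrx1, markers of limb mesenchyme, had medians of -10.1 points over 2 and -2.31 points over 3. Zfp423, a preadipocyte factor, had 4 and 0 one-library regions and 12.8 points over 11 shared regions, while Acsl1, an acyl-CoA synthetase, had 0 and 4 and -16.3 points over 3. Dpp4 and Dpt, both genes of fibroblast progenitors, went opposite ways, with 0 and 4 and with 4 and 0. Housekeeping genes had 5 and 6 and cell cycle genes 5 and 8.

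Over the 2115 genes with at least 4 shared regions, the largest median rank differences were found at genes outside these lists for the most part. Ak1, adenylate kinase 1 (chr2:32621758-32635058), had ranks of 31.3%, 58.4%, 44.6% and 45.0% in the non-immobilized and 87.8%, 81.3%, 39.3% and 99.4% in the immobilized library. The median was 38.6 points, and 1 of the 4 went the other way. Arap3, a regulator of small GTPases, had 36.1 points over 5, Klhl3, a ubiquitin ligase adaptor, 34.1 over 4, and Uggt1, a glycoprotein folding sensor, 31.3 over 5. Plpp1, a lipid phosphatase, had 28.7, Ptch1, the hedgehog receptor, 27.4, and Lamb1, a laminin chain, 26.9. In the other direction Adgrb1, an adhesion G protein-coupled receptor, had -32.6 points over 5, with a range of -39.2 to 9.14. Spdye4c had -28.9, Trim29, an epithelial TRIM protein, -27.7 and Tns4, a tensin of epithelia, -26.3. Ppp1r36, Il1rl2, which encodes the interleukin 36 receptor, and Rnaseh2b had -25.8, -25.6 and -25.5.

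Col12a1, which encodes a collagen of tendon and periosteum (chr9:79598987-79721141), had 4 regions, all shared. They ranked 25.04%, 91.1%, 91.1% and 23.4% in the non-immobilized and 21.98%, 38.9%, 40.6% and 20.7% in the immobilized library. The pair of strong sites ranked alike in both libraries, and the others differed by more than 50 points.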

How the data were processed

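Omni-ATAC libraries of mouse mesenchymal stem cells were compared, 1 per group, grouped by the sample labels. The build was mm10, and tools in the submitters' processing notes include MACS2 2.1.2 for peaks, Bowtie2 2.3.4.1 for alignment and Picard. Parameters, any transposase shift and the peak cutoff were not given in the sources used here. Summits were called per library, and the deposited lists give a score read as a −log10 p or q value from its layout; which of these was not stated, and it served for ranks inside each list alone. The headers of the deposited run statistics give read numbers as counts, the part that are duplicates as a fraction and alignment as a percent.

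Lists were cut to 47912 summits, widened by 250 bp and merged. Distances were taken to RefSeq gene starts (GRCm38.p6; 16457 genes) or, for 4208 genes with no start in the table, to either gene end; exons, introns and UTRs were not used here. Genes were assigned by the nearest gene end within 50 kb. Positions count from 1. Ranks, region building, neighbours and clusters were tested on simulated data. The compared libraries and the 28 gene lists were chosen with earlier results of these data known. The rule for named genes took, per direction, the 12 genes leading by the difference of one-library regions over the square root of their sum (at least 5 regions), the genes of the 10 best-ranked one-library regions and of the 8 largest clusters, the 8 largest median rank differences (at least 4 shared regions), up to 4 members per list, and a fixed set (Runx2, Sox9, Pdgfra, Prrx1, Yap1, Ptk2, Ddr2, Pparg, Scx). Of the leading genes by count, P3h2, Ppp1r14c, Cwh43, Fbln1, Gm51999, Kank1, Myl10, Mgll, Zfp988, Bcr, Chst15 and Cep41 are not described. Genes named beyond the rule, among them Robo4, Icam2, Kdr, Sox17, Sox18, Vwf, Ets1, Rasip1, Esrp1, Col17a1, Ovol1, Zfp750, Cdh1, Jup, Lamb3, Krt18, Itgb4, Ppl, Ovol2, Pitx1 and Il6, were chosen after their values were seen. A result that the rule named is not reported here. Alternatives were other list lengths, widths, distances and subsets. Scripts ran in Python 3.11.15 with scipy 1.17.1 for intervals, pandas 2.3.3 and matplotlib 3.10.9.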

Additional observations from a re-analysis of the deposited data

How the results depend on the processing

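Of 70 values under 13 alternative settings, 25 stayed within the intervals or 1.5 times the counts, 44 moved and 1 reversed. The reversed value was the endothelial share with the lists as deposited, counted so because it fell below 50%. It stayed above the share of all genes in that setting. No paired analysis was possible because each group has 1 library. Both settings without summits of the other list within 1 kb, and with either gene end, were chosen after seeing the data. With the lists as deposited there were 5798 non-immobilized-only and 24753 immobilized-only regions, 56.9% shared, median ranks of 81.0% and 72.9%, a near-start difference of 7.48 points, 71.8% of neighbours from the same library (69.2% by make-up), and 6 and 1009 clusters. The endothelial share was then 48.9%, beside 19.8% for all genes, and the epidermal share 2.20%. With the 23956 best summits of each list the values were 4303 and 4418 regions, 69.1% shared, median ranks of 83.1% and 83.1%, 50.8% of neighbours (50.01%), 11 and 5 clusters and an epidermal share of 6.52%. Widening by 100 bp gave 54.8% shared, 44.6% of neighbours (50%) and 213 non-immobilized and 174 immobilized clusters, an order opposite to that of the main setting. Widening by 500 bp gave 64.8% shared, a near-start difference of 1.18 points, 58.0% of neighbours (50.5%) and 67 non-immobilized and 119 immobilized clusters. Gaps of up to 50 kb gave 339 and 400 clusters, and assignment within 10 kb an endothelial share of 92.2%. Without kept summits of the other list within 1 kb there were 64.8% shared, a median non-immobilized rank of 80.8%, a near-start difference of 1.48 points, 62.2% of neighbours (50.5%) and 83 non-immobilized clusters. Without summits of the other deposited list within 1 kb there were 4160 non-immobilized-only regions with a median rank of 82.9%, 70.7% shared, a near-start difference of 0.61 points, 69.2% of neighbours (59.5%), 5 non-immobilized clusters, and endothelial and epidermal shares of 66.1% and 1.89% (28.2% for all genes). A further setting kept ranks better than 50% with no summit of the other's whole list within 500 bp, not 1 kb. It thus keeps regions of different libraries with summits between 500 bp and 1 kb apart, which the 1 kb settings remove. There 19.1% of neighbours were from the same library (56.3% by make-up) and the epidermal share was 4.35% (36.1% for all genes). The causes of these shifts were not tested. Depth could not be set equal, since reads were not used here, and a weak site missing from a list cannot be told from a closed one.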
